A study of Mus musculus with 36 samples.

Results

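Lrig1 GL cells of mouse tail epidermis were compared at 8 weeks after a first wound (8w pw1) and in unwounded skin (0w), across all 20181 genes of the Lrig1 count table, of which 14306 had enough counts to be tested. The comparison used 6 of the 36 libraries of the study, 3 at 8w pw1 and 3 at 0w. The libraries were chosen by population and time alone, and no expression value entered the choice. GL stands for genetically labelled. All mice carried the Lrig1-EGFP-ires-CreERT2 allele, which makes an inducible Cre recombinase in Lrig1-expressing cells, and the Rosa26-fl/STOP/fl-tdTomato reporter. Hydroxytamoxifen was given once on the tail of adult mice, so that Lrig1-expressing cells and the cells derived from them carried tdTomato from then on. The 0w mice were labelled but not wounded, and the 8w pw1 mice received a full-thickness wound of the tail after labelling and were sampled when re-epithelialization was complete. The sort did not separate tdTomato+ cells of the healed wound from those of more distant follicles, and small pools of these cells were sequenced from oligo(dT)-captured RNA by a Smart-seq2 protocol. Cells of 1w pw1, 2w pw1, 4w pw1 and of 1w after a second wound made at 8w (1w pw2) gave 3 libraries each, and Lgr5 GL cells were sampled on the same schedule.

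In intact skin Lrig1 is expressed by stem cells just below the opening of the hair follicle, the junctional zone, and their progeny supply the upper follicle and the sebaceous gland. After a wound, progeny of these cells move into the repaired epidermis as well as staying in the follicle. The question of the comparison is what remains different in the labelled cells when the tissue has healed. The study also labels fibroblasts that express Lrig1, and the labelled pool at 8w pw1 has had 8 weeks more to divide and to move than the pool at 0w. The 8w pw1 mice were also older at sampling than the 0w mice, so a lasting effect of the wound, age and time since labelling cannot be told apart. In pools of sorted cells, fewer cells of a type and less RNA per cell cannot be told apart either.

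The 6 libraries held between 1491780 and 3365666 counts. The 0w libraries are numbered as in the labels, and those of 8w pw1, whose columns could not be matched to single samples, are called a, b and c. Values of single genes are CPM, counts divided by the library total after edgeR's TMM scaling and set to a scale common to all libraries. Sums of marker lists are CPM without TMM scaling. A gene was called when its adjusted p was under 0.05 and its log2 fold change above 1 in size. The adjusted p is that of the edgeR quasi-likelihood test, by Benjamini-Hochberg over all genes tested. The 8w pw1 libraries stood apart from the 0w libraries in several measures of the whole library. Mitochondrial genes took 5.38%, 3.15% and 5.22% of the counts at 0w and 14.4%, 10.9% and 12.9% at 8w pw1, and between 3.82% and 8.99% at the other time points. The genes of the cytoplasmic ribosomal proteins took 1.80%, 2.09% and 2.12% at 0w and 1.08%, 0.877% and 1.11% at 8w pw1. The mean GC content of nuclear counts, each taken at the GC content of the gene's longest transcript, was 49.6%, 49.7% and 49.8% at 0w and 46.8%, 47.0% and 47.2% at 8w pw1, and the mean exon length of the counted genes was between 4744 and 5520 bases at 0w and between 6123 and 6257 bases at 8w pw1. Between 15666 and 16332 genes had a count in the libraries of 0w and between 16848 and 17352 in those of 8w pw1. For each of these measures the groups did not overlap, with an exact two-sided permutation p = 0.1, the smallest that 3 against 3 libraries can give. In Lgr5 GL cells, sequenced on the same schedule, the mitochondrial share lay between 1.98% and 3.10% at 0w and between 2.62% and 3.29% at 8w pw1.

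**Figure D1:**
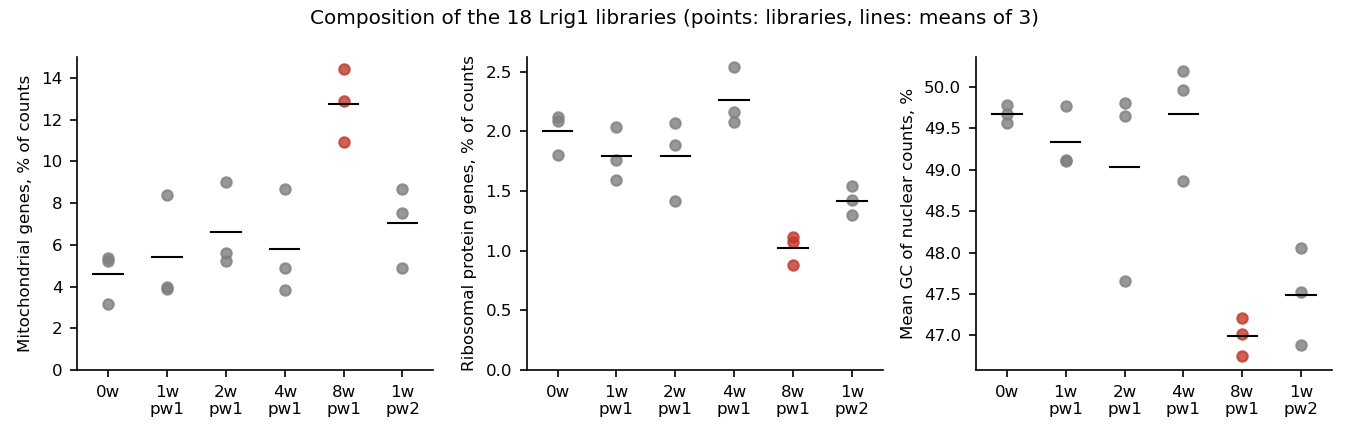
Measures of the 18 Lrig1 GL libraries by time point, as 3 panels: the percent of counts on mitochondrial genes, the percent on cytoplasmic ribosomal protein genes and the mean GC content of nuclear counts in percent, with 1 point a library and a line at the mean of 3. The 3 libraries of 8w pw1 had mitochondrial shares between 10.9% and 14.4%, above every library of the other time points, and ribosomal protein shares between 0.877% and 1.11%, below every other library.

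Keratinocyte markers were counted far above the markers of other cell types at both times, but several epidermal marker sums were lower at 8w pw1. These sums have no TMM scaling, while values of single genes have it. The TMM factors were 1.03, 1.09 and 1.05 at 0w and 0.821, 0.939 and 0.881 at 8w pw1. A fall at 8w pw1 therefore reads larger in these sums than it would with TMM scaling. Overlap of the sums was not tested on the TMM scale. The 12 basal keratinocyte markers summed to 25852, 25589 and 22635 CPM at 0w and to 11101, 14459 and 17297 CPM at 8w pw1, with no overlap, while their keratin Krt14 overlapped, at 12310, 7281 and 11396 CPM and at 5845, 7468 and 10609 CPM. The 15 sebaceous gland markers in the table summed to between 1461 and 3656 CPM at 0w and to between 934 and 1246 CPM at 8w pw1, with no count listed for 3 others, Awat1, Awat2 and Mogat1. The 9 small proline-rich genes of the cornified envelope in the table summed to between 631 and 777 CPM and to between 205 and 273 CPM, while the sums of the 18 interfollicular differentiation markers overlapped. The summed level of the 8 dermal fibroblast markers in the table lay between 63.6 and 146 CPM at 0w and between 48.8 and 71.6 CPM at 8w pw1, with no count listed for Lum and Dpt. Of the 11 T cell markers 9 had no count listed in the 6 libraries, and the summed level was at most 4.22 CPM. The 8 neutrophil markers summed to between 2.10 and 11.4 CPM at 0w and to 259, 3.42 and 14.1 CPM in libraries a, b and c of 8w pw1, with no count listed for Csf3r, Cxcr2, Retnlg and Ngp. The summed level of the 13 junctional zone and infundibulum markers was lower at 8w pw1, between 8128 and 11011 CPM, than at 0w, between 15368 and 22559 CPM, and that of the 16 bulge markers was between 4319 and 5983 CPM against between 8472 and 14222 CPM. The labels do not give the sex of the mice, and Xist, the RNA of the inactive X chromosome, was counted at 116, 2364 and 686 CPM at 0w and at 5264, 3221 and 5718 CPM at 8w pw1 (adjusted p = 0.143). Xist is named here after its values were seen. The part of these measures in the results below was not tested.

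At 8w pw1, 404 of 14306 genes were called, 2.82% of those tested, with 217 higher (1.52%) and 187 lower (1.31%) than at 0w. The genes called higher included the golgin Gorab, the scaffold protein Grip1, the kinase Bmp2k, the desmosomal protein Dsp and 8 mitochondrially encoded genes. The genes called lower included Tecr, an enzyme of fatty acid elongation, the respiratory chain proteins Cox7a2l and Cox4i1, and subunits of the proteasome and of the ribosome. With DESeq2 size factors in place of TMM, 269 genes were higher and 150 lower, and with library totals and no scaling factors, 192 were higher and 564 lower. The number of calls depended on single libraries. It was 18 without 0w 1, 604 without 0w 2, 181 without 0w 3, 7 without 8w a, 44 without 8w b and 51 without 8w c. A fit of the 6 libraries on their own, with no other time point to estimate the spread, called 9 genes, all higher, while DESeq2 called 1592 in the full set of libraries. Of 102 called genes selected by the rule for named genes, 4 were called in each of the 6 fits that left out 1 library (Bmp2k, Gorab, Grip1 and Kif5b), 29 in at least 3 of them and 15 in none of them.

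Gorab, which codes for a protein of the Golgi that binds Rab6, lies at chr1:163384908-163403669 on the minus strand of GRCm38. It was counted at 0, 0 and 0.64 CPM at 0w and at 23.3, 48.9 and 55.7 CPM at 8w pw1. The groups did not overlap, and the 0w libraries together held 1 count of the gene against 248 at 8w pw1. The ratio of those counts, scaled to the library sizes, was 237, with a 95% interval of 42.2 to 9407 that covers counting error only, and the adjusted p of the edgeR quasi-likelihood test was 0.0125. Grip1, at chr10:119453830-120087261 on the plus strand, codes for a scaffold with PDZ domains that is needed for adhesion of the epidermis to the dermis in the embryo. Its levels were 1.03, 0.812 and 0 CPM at 0w and 36.8, 23.8 and 40.7 CPM at 8w pw1, a log2 fold change of 5.57 ± 0.87 (SE, adjusted p = 0.0125). Every 8w pw1 library was thus more than 20 CPM above every 0w library.

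A small group of genes shared this pattern of near absence before the wound. Mmp3, a secreted protease that cuts matrix proteins, had no count in the 3 libraries of 0w and 21.8, 14.7 and 38.1 CPM at 8w pw1, at least 16.1-fold higher than a floor of 3 counts per library (adjusted p = 0.018). Rab31, a GTPase of vesicle traffic, was counted at 0, 1.62 and 3.2 CPM and at 22.2, 9.77 and 22.0 CPM (log2 fold change 3.49 ± 0.72, adjusted p = 0.0238). The lactate transporter Slc16a3 had 2 counts at 0w and 48 at 8w pw1, a ratio of 22.96 with a 95% interval of 6.02 to 195 (adjusted p = 0.0493). In each of these 3 genes all libraries of 8w pw1 were above all libraries of 0w. In all, 274 of the genes tested had no count at 0w and 87 had none at 8w pw1. More genes had a count in each 8w pw1 library (16848 to 17352) than in each 0w library (15666 to 16332). The part of this difference in the genes near absence at 0w was not tested. Of the 274, 13 were called higher, Mmp3 and the homeobox gene Dlx1 among them, against 1.52% called higher over all genes. Each of these 13 genes was detected in at least 2 of the 3 libraries of every other time point. A gene with no count at 0w passed the filter on low counts only through libraries of other time points, so detection there is in part fixed by the filter.

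S100a8, an alarmin made by neutrophils and by wounded keratinocytes, was also called (adjusted p = 0.0356), but its groups overlapped. It was counted at 0, 0.812 and 0 CPM at 0w and at 297, 0 and 12.9 CPM at 8w pw1. S100a8 is itself in the list of 8 neutrophil markers, so their sum of 259 CPM in library a is not a separate measure. That sum has no TMM scaling and so lies below the S100a8 value. The part of neutrophil RNA in the S100a8 value was not tested. Another member of the family, S100a11, was lower at 8w pw1, at 667, 370 and 560 CPM at 0w and at 205, 144 and 219 CPM at 8w pw1 with no overlap (log2 fold change -1.49 ± 0.30, adjusted p = 0.0238). S100a8 and S100a11 were the 2 called genes of 11 tested S100 genes, 18.2% against 2.82% over all genes.

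Among lists of the acute wound response, Slc16a3 was the single called gene of 32 of glycolysis and the hypoxia response, a share of 3.12% against 2.82% over all genes, with 10 at an unadjusted p under 0.05 and 4 called by DESeq2. The transcription factor Ets2 was lower, at 173, 340 and 347 CPM at 0w and 83.4, 81.8 and 150 CPM at 8w pw1 (-1.45 ± 0.36, adjusted p = 0.0431). It was the single called gene of 10 wound stress transcription factors (2 at an unadjusted p under 0.05), 10% against 2.82% over all genes. This call was lost in each of the 6 fits that left out 1 library. Of 4 wound-induced keratins, 11 AP-1 factors and 26 genes of mTORC1 signalling, edgeR called 0, while 2, 1 and 7 of them had an unadjusted p below 0.05 and DESeq2 called 2, 0 and 3. The median log2 fold changes of the keratins and of the mTORC1 genes were -1.31 and -0.60.

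The promoters of the 2 genes ranked first in each direction that have one in the reference are shown because these genes lead the comparison. They come from RefSeq (GRCm38.p6) and run from 250 bases before to 50 bases after the start of transcription, in the direction of the gene, and each CpG is written in capitals. The Gorab promoter (chr1:163403620-163403919, minus strand) held 17 CpG, the Tecr promoter (chr8:83594442-83594741, minus strand) 22 and the Cox7a2l promoter (chr17:83514284-83514583, minus strand) 19. The Grip1 promoter (chr10:119992672-119992971, plus strand), the first of 3 listed for this gene, held 1. It belongs to a start inside the span of the gene given above, so this number is not that of the first start of the gene.
Gorab: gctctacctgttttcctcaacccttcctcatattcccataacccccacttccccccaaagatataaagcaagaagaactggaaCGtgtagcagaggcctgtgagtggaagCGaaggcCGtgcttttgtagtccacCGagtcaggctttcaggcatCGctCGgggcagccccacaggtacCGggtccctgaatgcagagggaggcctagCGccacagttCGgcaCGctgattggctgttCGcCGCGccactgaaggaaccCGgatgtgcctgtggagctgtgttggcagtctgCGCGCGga
Grip1: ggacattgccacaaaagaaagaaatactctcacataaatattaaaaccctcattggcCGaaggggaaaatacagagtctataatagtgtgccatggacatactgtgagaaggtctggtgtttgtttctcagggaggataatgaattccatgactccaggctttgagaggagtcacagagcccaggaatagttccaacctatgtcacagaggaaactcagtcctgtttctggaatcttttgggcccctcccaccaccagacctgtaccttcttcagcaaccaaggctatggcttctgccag
Tecr: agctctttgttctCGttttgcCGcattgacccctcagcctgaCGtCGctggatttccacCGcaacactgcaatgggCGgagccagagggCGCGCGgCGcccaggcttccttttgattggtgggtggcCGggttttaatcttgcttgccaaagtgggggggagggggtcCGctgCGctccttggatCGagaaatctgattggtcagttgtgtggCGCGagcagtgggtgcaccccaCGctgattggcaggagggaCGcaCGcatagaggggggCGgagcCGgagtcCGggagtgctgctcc
Cox7a2l: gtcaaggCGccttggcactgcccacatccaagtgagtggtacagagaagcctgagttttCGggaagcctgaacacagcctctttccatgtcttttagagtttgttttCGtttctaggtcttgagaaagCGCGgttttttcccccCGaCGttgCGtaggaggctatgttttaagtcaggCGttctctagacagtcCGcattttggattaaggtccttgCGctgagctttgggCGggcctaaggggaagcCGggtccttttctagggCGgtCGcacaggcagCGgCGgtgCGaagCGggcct
The motif of AP-1, the transcription factor of Fos and Jun proteins, was searched as TGANTCA, which is its own reverse complement, and was found in none of these 4 windows. Across genes it stood in the first promoter of 5.92% of 152 genes called higher and of 4.86% of 144 called lower, against 5.05% of 9452 genes tested and 7.81% of all 32851 promoters listed. A match to these letters is a description and not a binding site.

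Most of the genes with the smallest adjusted p among those called higher were present at 0w and rose by a factor of 3 or more. Bmp2k, a kinase induced by BMP2, at chr5:96997689-97091867, was counted at 31.3, 25.6 and 49.3 CPM at 0w and at 120, 192 and 169 CPM at 8w pw1 (log2 fold change 2.18 ± 0.33, adjusted p = 0.0125). Kif5b, the heavy chain of the motor protein kinesin-1, was counted at 185, 195 and 172 CPM and at 549, 600 and 579 CPM (log2 fold change 1.65 ± 0.25, adjusted p = 0.0125), with a spread within each group far below the distance between the groups. With the trend of log2 CPM on GC content removed from each library, Kif5b had a log2 fold change of 0.29 and was not called (adjusted p = 0.582). Matn2, a protein of the extracellular matrix, was counted at 33.4, 37.0 and 87.1 CPM and at 301, 296 and 239 CPM (2.41 ± 0.43, adjusted p = 0.016). In Arid4b, a chromatin protein of the Sin3 complex, the 0w libraries differed among themselves, with 3.08, 30.9 and 14.7 CPM, but stayed below the 343, 132 and 269 CPM of 8w pw1 (3.91 ± 0.67, adjusted p = 0.0155). Usp15, a deubiquitinase, Zfp397, a zinc finger protein, and Naa30, the catalytic subunit of an amino-terminal acetyltransferase, rose by log2 fold changes of 2.31, 3.01 and 2.07. None of these genes overlapped between the groups, as the rule that named them required, so this adds nothing to their calls. Of the 14306 genes tested, 3950 did not overlap (27.6%, with 14.8% above and 12.8% below).

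Dsp, desmoplakin, which ties keratin filaments to the desmosome, was the most highly counted nuclear gene among the 15 named as higher by rank. It was counted at 1287, 2681 and 2020 CPM at 0w and at 10913, 6516 and 9728 CPM at 8w pw1 (log2 fold change 2.18 ± 0.39, adjusted p = 0.016). It was the single called gene among 28 tested genes of cadherins, desmosomes and tight junctions, 3.57% against 2.82% over all genes. The log2 fold changes of this list ran from -1.07 to 2.18. Cdh1, E-cadherin, was counted at 129, 417 and 242 CPM and at 749, 408 and 395 CPM, with overlapping groups and a log2 fold change of 0.98 ± 0.40 (adjusted p = 0.153). Gja1, the gap junction protein connexin 43, was counted at 150, 94.2 and 181 CPM and at 468, 335 and 608 CPM (1.73 ± 0.39, adjusted p = 0.0304). It was the single called gene among 8 connexins, 12.5% against 2.82% over all genes. With the GC trend removed, Dsp stayed called at 2.30, while Gja1 had 0.53 (adjusted p = 0.41) and was not called. Of the 6 fits that left out 1 library, 4 called Dsp and 1 called Gja1.

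**Figure D2:**
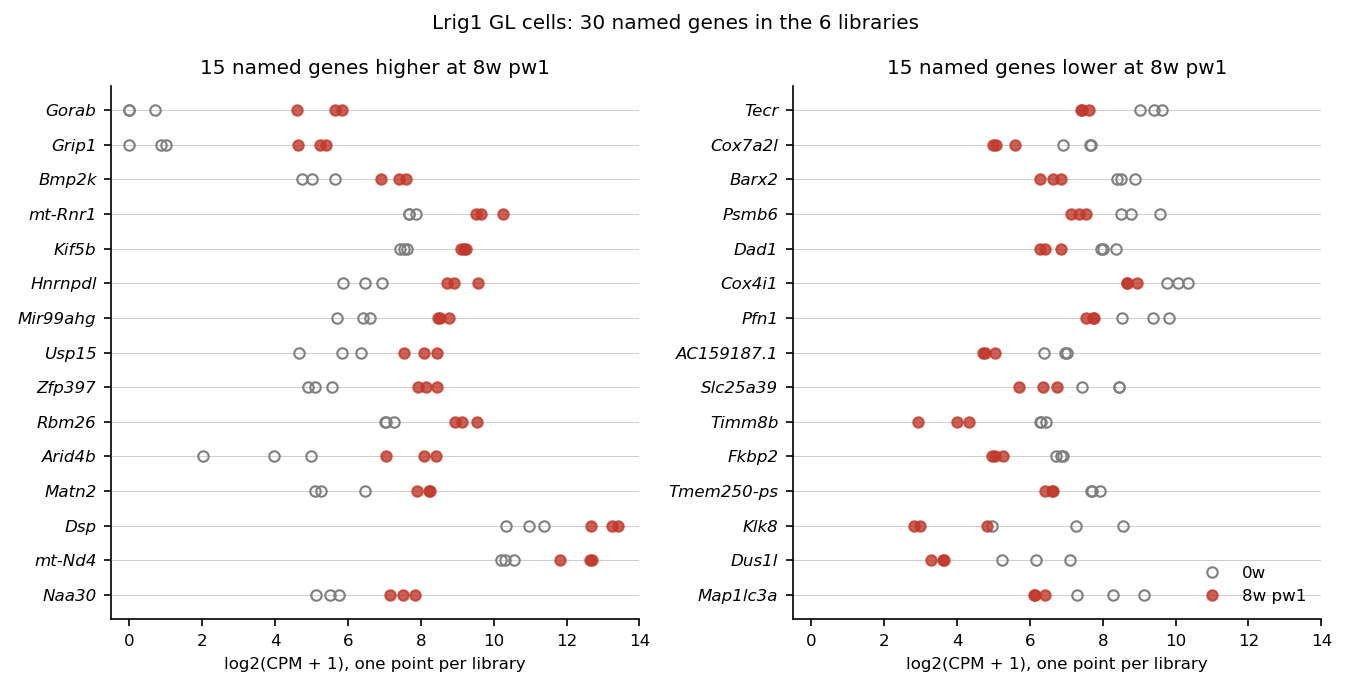
Level of the 15 genes called higher and the 15 called lower with the smallest adjusted p in each of the 6 libraries, as log2(CPM + 1), with the 3 libraries of 0w and the 3 of 8w pw1 as separate points. In each gene all points of one group lie on one side of all points of the other, as the rule that named them required. Gorab and Grip1 lie at or near 0 in every library of 0w, and the other genes were counted at both times.

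Mir99ahg is a long non-coding RNA at chr16:77236317-77773427 on the plus strand, whose introns hold a cluster of microRNA genes. It was counted at 50.8, 84.5 and 96.1 CPM at 0w and at 438, 352 and 365 CPM at 8w pw1, with no overlap (log2 fold change 2.32 ± 0.38, adjusted p = 0.013). It was the single called gene among 12 tested nuclear and abundant long non-coding RNAs, 8.33% against 2.82% over all genes. Of these 12, 10 had a positive log2 fold change, and the median of the list was 1.24. Once the GC trend was removed, this median was -0.06 with 0 called, against -0.33 over all genes. Mir99ahg then had a log2 fold change of 0.84 (adjusted p = 0.146). The mature 5p microRNAs encoded within the gene are shown because they are the products by which the locus is known. Their sequences come from RefSeq, and capitals mark the seed, bases 2 to 8, by which a microRNA pairs with its targets.
mmu-miR-99a-5p: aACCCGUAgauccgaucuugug
mmu-let-7c-5p: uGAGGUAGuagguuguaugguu
mmu-miR-125b-5p: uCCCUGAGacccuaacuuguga
The 3 seeds differ from each other. Oligo(dT) capture does not measure mature microRNAs, so the values are those of the host RNA alone.

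RNA-binding proteins were among the genes called higher. Hnrnpdl, an hnRNP-like protein, was counted at 57.0, 87.7 and 122 CPM at 0w and at 483, 423 and 763 CPM at 8w pw1 (log2 fold change 2.65 ± 0.43, adjusted p = 0.013). Rbm26, which takes part in nuclear RNA decay, was counted at 130, 128 and 152 CPM and at 560, 746 and 493 CPM (2.13 ± 0.36, adjusted p = 0.0148). Of 36 tested serine/arginine splicing factors and hnRNPs, 31 had a positive log2 fold change and the median was 0.73, against -0.01 over all genes tested. The tests called 2 of them higher, Rbm39 (1.63) and Srsf10 (1.28), and 1 lower, Hnrnpl (-1.52), 8.33% against 2.82% over all genes. The transcripts of this list have a median GC content of 43.0%. With the GC trend removed, the list had a median of -0.30 with 0 called, against a median of -0.33 over all genes under that setting, and the value of Srsf10 turned to -0.09. Without 8w a, 8w b, 8w c or 0w 1, 0 of the list were called, while 20 had an unadjusted p under 0.05 in the edgeR test and DESeq2 called 13.

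Among the genes of oxidative phosphorylation, those called higher were encoded in mitochondrial DNA and those called lower in the nucleus, while most genes of both kinds were not called. With the trend of log2 CPM on GC content removed, most of the mitochondrially encoded genes outside complex IV turned negative. The respiratory chain and the ATP synthase are built from subunits encoded in the nucleus and a few encoded in mitochondrial DNA. All 13 mitochondrially encoded protein genes had a positive log2 fold change, from 1.17 to 4.27 with a median of 2.55, and 6 were called, against 1.52% called higher over all genes. Of the 73 nuclear genes of the same complexes, 57 had a negative and 16 a positive log2 fold change, with a median of -0.80, and 18 were called lower, against 1.31% over all genes, and 0 higher. In either direction 36 of the 73 had an unadjusted p under 0.05, as did 3279 of the 14306 genes tested. In complex IV, cytochrome c oxidase, the 3 mitochondrial subunits were all called higher and 5 of the 10 nuclear subunits lower.

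Within complex IV, mt-Co1 was counted at 4148, 3476 and 3930 CPM at 0w and at 39853, 21584 and 39430 CPM at 8w pw1 (log2 fold change 3.13 ± 0.58, adjusted p = 0.0163). The values of mt-Co2 were 592, 265 and 378 CPM and 10182, 2782 and 8119 CPM (4.09 ± 0.84, adjusted p = 0.0238), and those of mt-Co3 were 1671, 593 and 833 CPM and 29696, 9395 and 20695 CPM (4.27 ± 1.01, adjusted p = 0.0356). Library b was the lowest of the 8w pw1 libraries in all 3 genes and still above every library of 0w. The nuclear subunit Cox4i1 was counted at 1305, 862 and 1069 CPM and at 493, 403 and 403 CPM (-1.32 ± 0.23, adjusted p = 0.016), and Cox5a at 238, 73.5 and 174 CPM and at 49.5, 40.9 and 52.0 CPM (-1.76 ± 0.35, adjusted p = 0.0238). Cox5b, Cox6b1 and Cox8a were also lower, by log2 fold changes of -1.39, -1.46 and -1.42. Cox7a2l, at chr17:83501918-83517330, which joins complexes III and IV into a supercomplex, was counted at 200, 204 and 119 CPM at 0w and at 30.6, 47.0 and 32.7 CPM at 8w pw1 (-2.25 ± 0.37, adjusted p = 0.013).

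In complex I, 3 of 7 mitochondrial genes were higher (mt-Nd2, mt-Nd4 and mt-Nd5) and 7 of 35 nuclear genes lower, Ndufs8 (-1.80), Ndufa13 (-1.56) and Ndufs7 (-1.47) among them. In complex III, mt-Cytb is the only mitochondrial gene, at 1.33 and not called, and 3 of 9 nuclear genes were lower, the largest change being that of Cyc1, cytochrome c1 (-1.73). In complex V, the ATP synthase, 3 of 15 nuclear genes were lower, Atp5k (-1.77), Atp5o (-1.58) and Atp5e (-1.54), and the 2 mitochondrial genes, at 2.55 and 2.71, were not called. Complex II is encoded in the nucleus alone, and 0 of its 4 genes were called, with a median of -0.26. The ribosomal RNA of the small mitochondrial subunit, mt-Rnr1, was counted at 232, 203 and 204 CPM at 0w and at 1221, 727 and 809 CPM at 8w pw1 (2.11 ± 0.33, adjusted p = 0.0125). Outside the complexes, Timm8b, a chaperone of protein import into mitochondria, was counted at 86.2, 77.2 and 77.5 CPM at 0w and at 6.55, 18.9 and 15.01 CPM at 8w pw1 (-2.58 ± 0.50, adjusted p = 0.0193), and Slc25a39, which carries glutathione into mitochondria, fell by 1.85 on the log2 scale.

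The first 120 bases of the coding sequence of mt-Co1, Cox4i1 and Cox5a are shown because subunits of 1 enzyme moved in opposite directions and differ in base composition. These sequences, chosen after the values were seen, are from the reference transcripts of GRCm38, with G and C in capitals. The coding sequence of mt-Co1 has 1542 bases and a GC content of 39.9%, that of Cox4i1 has 507 bases and 53.5%, and that of Cox5a has 438 bases and 52.3%. The GC trend was fitted on the longest transcript of each gene, with a GC content of 39.9% for mt-Co1, 58.0% for Cox4i1 and 41.6% for Cox5a, so the longest transcript of Cox5a is far lower in GC content than its coding sequence.
mt-Co1: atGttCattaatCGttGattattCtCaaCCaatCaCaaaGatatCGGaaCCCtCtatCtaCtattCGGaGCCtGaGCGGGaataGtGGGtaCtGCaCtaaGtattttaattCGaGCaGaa
Cox4i1: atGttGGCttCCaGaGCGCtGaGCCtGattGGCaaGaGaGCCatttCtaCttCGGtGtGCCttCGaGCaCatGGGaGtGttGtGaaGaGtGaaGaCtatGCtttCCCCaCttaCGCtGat
Cox5a: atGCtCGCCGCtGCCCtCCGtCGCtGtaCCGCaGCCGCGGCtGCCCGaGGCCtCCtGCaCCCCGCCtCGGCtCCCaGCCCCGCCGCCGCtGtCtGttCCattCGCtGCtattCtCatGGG
With the GC trend removed from each library, the median of the 13 mitochondrially encoded genes was -0.14, and 8 of the 13 turned negative, mt-Nd2, mt-Nd4 and mt-Nd5 among them. Of these, mt-Nd6 was called lower at -1.27 (adjusted p = 0.0441), against 1.17 and no call before. The medians of the mitochondrial genes of complexes I, III and V were -0.20, -0.39 and -0.15, and that of the 3 complex IV genes was 2.24 with 0 called. The 73 nuclear genes had a median of -0.92 under that setting, against -0.33 over all genes, with 5 called lower. These were Cox5a (-3.12), Cox5b and Atp5o, called before as well, and Ndufv2 and Cox7c, not called before. Cox7a2l, which is outside the 73, stayed called at -2.42. Without 0w 1, 8w a, 8w b or 8w c, 0 of the nuclear genes were called, and 22 without 0w 2 and 4 without 0w 3. Without 0w 1 or 8w a, 0 of the mitochondrial genes were called, and 2 to 4 in the other fits. Over the 6 fits that left out 1 library the medians ran from 2.11 to 2.96 for the mitochondrial genes and from -0.93 to -0.66 for the nuclear genes. Nuclear copies of mitochondrial genes share reads with them, so counts cannot be assigned with certainty between such copies.

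Some ribosomal protein and proteasome genes were lower at 8w pw1, and 0 of these 2 lists were higher. Of 79 cytoplasmic ribosomal proteins, 74 had a negative log2 fold change with a median of -0.86, and 7 were called lower (8.86%, against 1.31% over all genes). Rpl32 was counted at 415, 345 and 293 CPM at 0w and at 168, 118 and 156 CPM at 8w pw1 (-1.25 ± 0.27, adjusted p = 0.0238), and Rpl41 at 430, 358 and 466 CPM and at 178, 155 and 164 CPM (-1.33 ± 0.27, adjusted p = 0.0238). Neither gene overlapped between the groups. Many ribosomal protein genes have processed pseudogenes that can share their reads. Of 31 proteasome subunits, 26 had a negative log2 fold change with a median of -0.75, and 7 were called lower (22.6%). Psmb6, a catalytic subunit, was counted at 766, 360 and 437 CPM and at 161, 139 and 186 CPM (-1.69 ± 0.29, adjusted p = 0.0149), and Psmb4 at 269, 121 and 246 CPM and at 79.7, 54.4 and 66.5 CPM (-1.66 ± 0.35, adjusted p = 0.0238). With the GC trend removed, the medians were -0.82 for the ribosomal proteins and -1.01 for the proteasome, with 7 and 5 genes called lower. These were in part other genes than before. Of the genes called before, only Rpl6, Rpl10a, Psmb3, Psmb4 and Psmb6 stayed called. Rpl32 (adjusted p = 0.0548) and Rpl41 (adjusted p = 0.0863) lost the call under that setting. The median over all genes was -0.01 before and -0.33 under that setting, where 0.811% of all genes were called lower. Without 8w a, 8w b or 0w 1, 0 genes of either list were called, and without 8w c 0 of the ribosomal proteins and 1 of the proteasome.

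The antioxidant genes controlled by NRF2 had a median log2 fold change of -0.79 over 25 tested genes, with 4 called lower (16%, against 1.31% over all genes) and 0 higher, and 9 at an unadjusted p under 0.05. Gpx1, which reduces peroxides with glutathione, was counted at 932, 522 and 813 CPM at 0w and at 352, 289 and 353 CPM at 8w pw1 (-1.19 ± 0.25, adjusted p = 0.0238). Gpx4, Tkt and G6pdx, the last being the first enzyme of the pentose phosphate pathway, had log2 fold changes of -1.62, -1.07 and -1.68. Of 23 cathepsin and lysosome genes, Ctsd (-1.28) and Cd63 (-1.23) were lower and Lamp2 (1.52) was higher, 13% of the list against 2.82% over all genes, with a median of -0.70. Without 0w 1, 8w a, 8w b or 8w c, 0 genes of either list were called. With the GC trend removed, 1 of the 25 and 1 of the 23 were called, both lower and neither among the genes named here. The adjusted p was then 0.196, 0.191, 0.160 and 0.0939 for Gpx1, Gpx4, Tkt and G6pdx. It was 0.0997 and 0.221 for Ctsd and Cd63, and Lamp2 turned to -0.25.

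Tecr, which reduces trans-2-enoyl-CoA in the last step of the elongation of very long chain fatty acids, lies at chr8:83571698-83607971. It was counted at 797, 517 and 678 CPM at 0w and at 169, 172 and 195 CPM at 8w pw1 (-1.89 ± 0.30, adjusted p = 0.0125). The 8w pw1 libraries differed little from each other, and the highest of them, at 195 CPM, was well below the lowest 0w library, at 517 CPM. The homeobox gene Barx2, at chr9:31846044-31913462, was counted at 335, 475 and 365 CPM and at 116, 98.3 and 76.7 CPM (-2.01 ± 0.34, adjusted p = 0.0144). Dad1, a subunit of the enzyme that puts N-glycans on proteins in the endoplasmic reticulum, was counted at 245, 255 and 330 CPM and at 76.8, 84.3 and 114 CPM (-1.59 ± 0.28, adjusted p = 0.016). P4hb, protein disulfide isomerase, Syvn1, a ubiquitin ligase of the endoplasmic reticulum, and Fkbp2, a prolyl isomerase of the same compartment, had log2 fold changes of -1.54, -1.74 and -1.76. Pfn1, which binds actin, was counted at 902, 366 and 660 CPM and at 211, 186 and 217 CPM (-1.65 ± 0.31, adjusted p = 0.0172).

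Further genes named as lower by rank were less even at 0w. Klk8, a serine protease of the epidermis, was counted at 30.3, 154 and 377 CPM at 0w and at 6.92, 6.11 and 27.3 CPM at 8w pw1 (-3.80 ± 0.80, adjusted p = 0.0238). Library 0w 1 was thus close to library c of 8w pw1. Dus1l, which modifies transfer RNA, was counted at 138, 70.7 and 36.5 CPM and at 8.74, 11.6 and 11.3 CPM (-2.95 ± 0.61, adjusted p = 0.0238). Map1lc3a, an LC3 protein of autophagosomes, was counted at 558, 309 and 156 CPM and at 69.9, 83.7 and 68.1 CPM (-2.21 ± 0.46, adjusted p = 0.0238). AC159187.1 and Tmem250-ps complete the 15 lower genes, with log2 fold changes of -2.00 and -1.25. The differentiation gene Lgals7 was the single called gene among 16 interfollicular differentiation markers, 6.25% against 2.82% over all genes. Its levels were 1582, 1820 and 2375 CPM at 0w and 852, 694 and 826 CPM at 8w pw1 (-1.28 ± 0.33, adjusted p = 0.0465).

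Receptors and feedback genes of signalling pathways were called in small numbers. Spry2, which restrains ERK signalling, was counted at 67.7, 49.1 and 57.0 CPM at 0w and at 274, 178 and 185 CPM at 8w pw1 (1.87 ± 0.33, adjusted p = 0.016). Tgfbr1, a receptor of TGF-beta, was counted at 4.62, 28.4 and 14.1 CPM and at 190, 112 and 122 CPM (3.15 ± 0.73, adjusted p = 0.0338), and Skil, a repressor of the same pathway, rose by 1.66. Jag1, a Notch ligand, was counted at 97.5, 450 and 160 CPM and at 1076, 958 and 1282 CPM (2.23 ± 0.52, adjusted p = 0.0348). Itgav, an integrin subunit, Gsk3b, a kinase of the Wnt pathway, and Amotl2, which binds YAP, had log2 fold changes of 2.48, 1.51 and 2.73. These genes were 1 of 8 tested ERK feedback genes, 2 of 27 of the TGF-beta and BMP response, 1 of 18 of the Notch pathway, 2 of 39 of migration and matrix remodelling with Mmp3, 1 of 26 of the Wnt pathway and 1 of 14 YAP targets, against 2.82% over all genes. Removing the GC trend left Mmp3 called. Among the others, Amotl2 (3.24, adjusted p = 0.0518) and Jag1 (2.00, adjusted p = 0.053) had values near or above those before and adjusted p just past the threshold, Tgfbr1, Itgav and Spry2 had 1.88, 1.58 and 1.23, and Gsk3b and Skil had 0.93 and 0.31.

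Among chromatin genes, 2 of 32 chromatin remodelling genes (6.25%) and 1 of 31 genes of the Polycomb repressive complexes (3.23%) were called, against 2.82% over all genes, while 10 and 9 had an unadjusted p under 0.05 and DESeq2 called 7 and 5. Chd7, an ATPase of enhancers, was counted at 69.3, 154 and 67.9 CPM at 0w and at 302, 220 and 254 CPM at 8w pw1 (1.41 ± 0.35, adjusted p = 0.0431), and Baz1a had a log2 fold change of 2.23. Jarid2, a partner of PRC2 and the called Polycomb gene, was counted at 12.3, 30.5 and 29.5 CPM and at 77.6, 62.9 and 125 CPM (1.87 ± 0.49, adjusted p = 0.0479). Of 33 histone lysine methyltransferases and demethylases and of 11 H2A deubiquitinases, 0 were called by edgeR, while 6 and 2 of them had an unadjusted p below 0.05 and DESeq2 called 1 in each list. Stress genes moved in different directions, with Hspa1b (2.14) and Hsp90aa1 (1.46) higher and the constitutive chaperone Hspa8 (-1.02) lower. Of 29 Rab GTPases, Rab31, Rab21 (1.88) and Rab18 (1.48) were higher and Rab1b (-1.47) lower, 13.8% of the list against 2.82% over all genes. Cdc20 (-1.86), an activator of the anaphase-promoting complex, was the single called gene among 30 of DNA replication and mitosis, 3.33% against 2.82% over all genes. With the GC trend removed, Chd7, Hspa1b, Hspa8 and Rab31 stayed called. Jarid2 (1.65), Baz1a (1.51), Hsp90aa1 (0.44), Rab21 (0.73), Rab1b (-0.99) and Cdc20 (-1.55) lost the call, and Rab18 turned to -0.13. Jarid2, Baz1a, Hsp90aa1, Hspa8 and Rab18 were called in 0 of the 6 fits that left out 1 library.

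**Figure D3:**
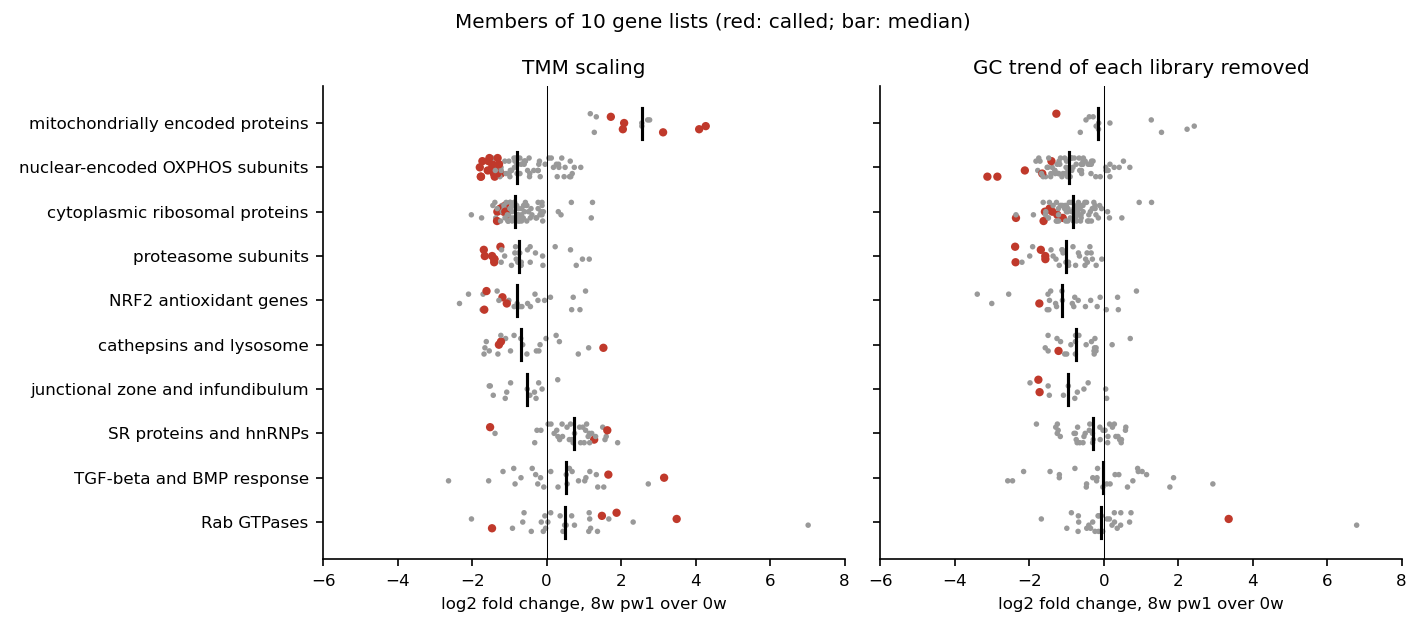
Log2 fold change of 8w pw1 against 0w for the tested members of 10 gene lists, 1 point a gene, under TMM scaling (left) and with the GC trend of each library removed (right), with called genes in red and a bar at the median of each list. On the left the mitochondrially encoded proteins have a median of 2.55 and the nuclear oxidative phosphorylation subunits, the ribosomal proteins and the proteasome have medians of -0.80, -0.86 and -0.75, and on the right these medians are -0.14, -0.92, -0.82 and -1.01. Over all genes tested the median is -0.01 on the left and -0.33 on the right.

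The marker genes that the study follows through healing were not among the genes called, with 0 of 12 called by edgeR, 4 at an unadjusted p under 0.05, and 2 called by DESeq2. Lrig1 itself was counted at 224, 244 and 183 CPM at 0w and at 74.3, 124 and 103 CPM at 8w pw1, a log2 fold change of -1.11 ± 0.33 that missed the threshold (adjusted p = 0.069) although the groups did not overlap. Its means at 1w, 2w and 4w pw1 and at 1w pw2 were 122, 100, 73.5 and 106 CPM. Krt6b, a keratin of wounded epidermis, was counted at 64.7, 82.8 and 35.2 CPM and at 10.9, 9.16 and 28.9 CPM (-1.90 ± 0.65, adjusted p = 0.0988). Slc2a1, the glucose transporter Glut1, was counted at 110, 208 and 145 CPM and at 188, 223 and 385 CPM, with overlapping groups (0.78 ± 0.36, adjusted p = 0.205). Ly6a, which encodes Sca-1, was counted at 326, 186 and 423 CPM and at 269, 195 and 280 CPM (-0.33 ± 0.31, adjusted p = 0.561). Of 13 junctional zone and infundibulum markers, 12 had a negative log2 fold change with a median of -0.52 and 0 were called by edgeR, with 5 at an unadjusted p under 0.05 and 3 called by DESeq2. With the GC trend removed, these 13 had a median of -0.95, against -0.33 over all genes. Of them 2 were then called lower, Sostdc1 and Postn. Postn, which is also 1 of the 12 genes above, went from 0.30 to -1.75 (adjusted p = 0.038).

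The genes called at 8w pw1 differed in when they left the level of 0w. All time points are compared with the same 0w libraries, so the values of each are given side by side. At 1w pw1, 31 genes were called (0.217%), at 2w pw1 0 (1499 at an unadjusted p under 0.05, no other tool being run there), at 4w pw1 6 (0.0419%) and at 1w pw2 176 (1.23%). Between 8w pw1 and 4w pw1, a comparison that does not use 0w, 527 genes were called (3.68%).

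Gorab, Grip1, Rab31 and Mmp3 were already above the level of 0w at the first time point after the wound, in part at few counts. Mmp3 was counted at 32.3, 3.39 and 4.15 CPM at 1w pw1, where 3 counts are 3.37 CPM in library 1w 2. Gorab was at 3.80 CPM in library 1w 1, where 3 counts are 2.83 CPM. Gorab had means of 19.3 ± 15.6, 10.5 ± 2.04 and 19.2 ± 6.15 CPM (SD, n = 3) at 1w, 2w and 4w pw1 and of 17.5 ± 5.34 CPM at 1w pw2, with adjusted p of 0.0157 at 1w pw1 and 0.0396 at 4w pw1 from the edgeR test against 0w. Grip1 had means of 19.7, 24.1, 32.5 and 30.8 CPM at these times, against 33.8 ± 8.85 CPM (SD, n = 3) at 8w pw1. Rab31 was highest shortly after each wound, with 84.6 ± 48.7 CPM at 1w pw1 and 114 ± 17.2 CPM at 1w pw2 (SD, n = 3), against 17.99 CPM at 8w pw1. Between 8w pw1 and 4w pw1, none of these 4 genes passed the edgeR test, with adjusted p of 0.379 for Gorab, 0.975 for Grip1, 0.561 for Rab31 and 0.99 for Mmp3.

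Other genes were called at 8w pw1 against 4w pw1 as well as against 0w. Mir99ahg had means of 87.7, 87.1 and 67.4 CPM at 1w, 2w and 4w pw1, 385 CPM at 8w pw1 and 247 CPM at 1w pw2, with a log2 fold change of 2.51 between 8w and 4w pw1 (adjusted p = 0.0152). Dsp had means of 3052, 2638 and 2388 CPM at 1w, 2w and 4w pw1 (8w against 4w pw1 1.92, adjusted p = 0.0194). Spry2, Rbm39, Kif5b and mt-Co1 were likewise higher at 8w than at 4w pw1, by 2.06, 1.91, 1.28 and 2.11. Tecr had means of 331, 349, 537 and 178 CPM at 1w, 2w, 4w and 8w pw1 and of 196 CPM at 1w pw2 (8w against 4w pw1 -1.59, adjusted p = 0.0157), and Psmb6 and Cox4i1 were lower at 8w than at 4w pw1, by -1.48 and -1.23. The 8w pw1 libraries differ from those of 4w pw1 in mitochondrial share and GC content as they do from those of 0w, and the part of this in these values was not tested.

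**Figure D4:**
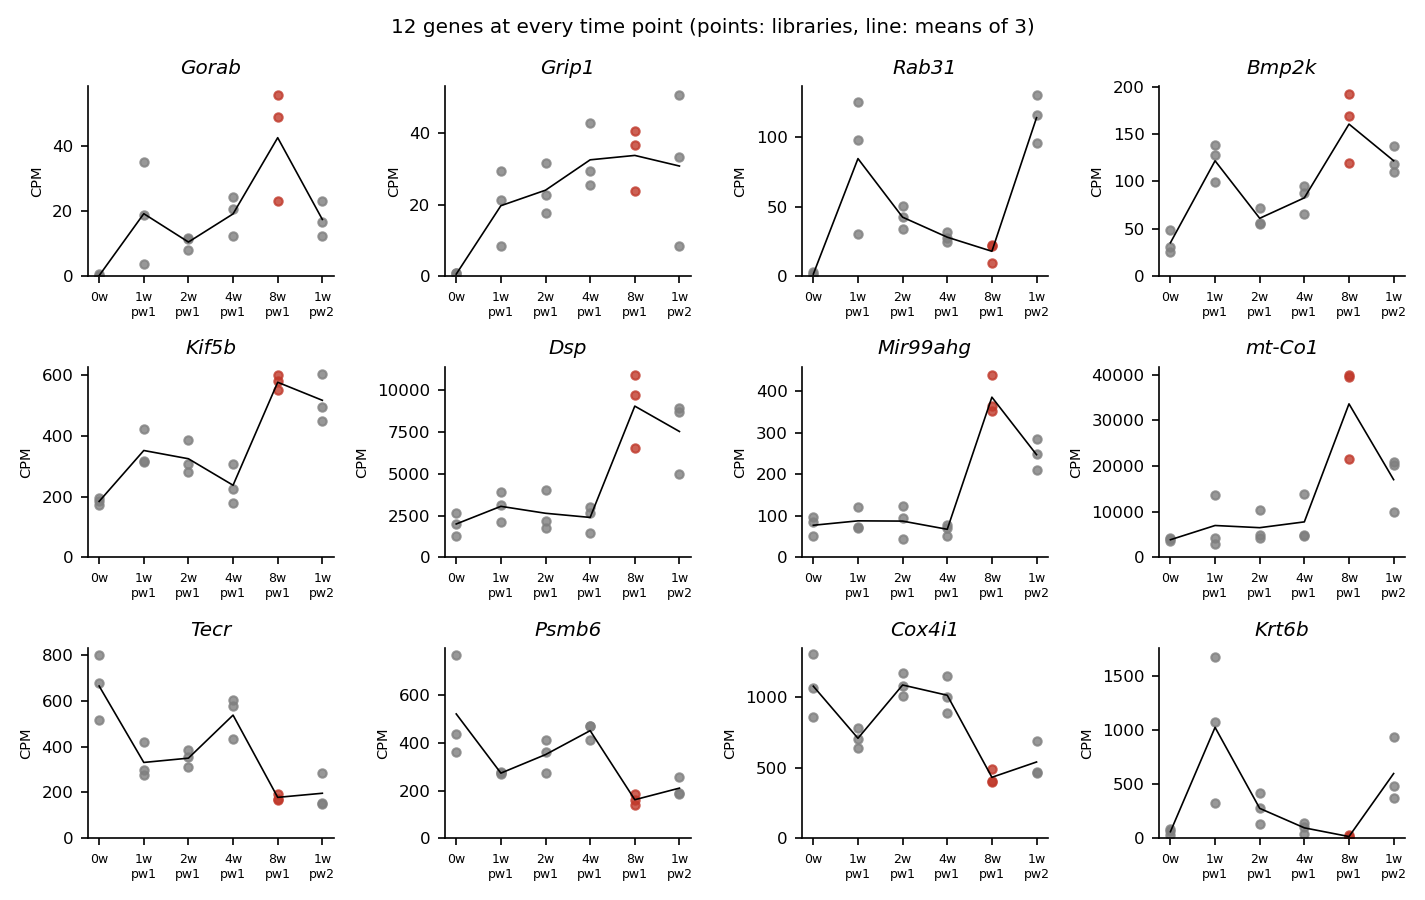
Level of 12 genes in each Lrig1 GL library, in CPM on linear axes that start at 0, by time point, with 1 point a library and a line through the means of 3. Gorab and Grip1 lie near 0 at 0w and above it at every later time, while Mir99ahg and Dsp have lower means at 0w to 4w pw1 than at 8w pw1 and 1w pw2.

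The calls followed the base composition and length of the transcripts. The genes called higher had a median GC content of 42.4% and a median exon length of 6790 bases, and those called lower 54.5% and 2140 bases, against 48.9% and 3848.5 bases over all genes tested. In quartile 1 of GC content, up to 44.2%, 140 were called higher and 1 lower, and in quartile 4, from 53.7%, 10 were called higher and 104 lower. With the GC trend removed from each library, 152 genes were called (1.06%), 36 higher (0.252%) and 116 lower (0.811%), and 74 of these were among the 404. The sign was kept in 384 of the 404 genes. Of the 15 genes named as higher by rank, 8 kept their call under this setting, Gorab, Grip1, Bmp2k, Hnrnpdl, Rbm26, Arid4b, Dsp and Matn2, while Mir99ahg, Kif5b, Usp15, Zfp397 and Naa30 lost it and mt-Rnr1 and mt-Nd4 turned to -0.11 and -0.14. Of the 15 named as lower, 9 kept it, among them Tecr (-1.49), Cox7a2l (-2.42), Barx2 (-1.53), Psmb6 (-1.69), Dad1 (-2.12) and Timm8b (-2.74). The part of library preparation and of biology in this trend was not tested.

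**Figure D5:**
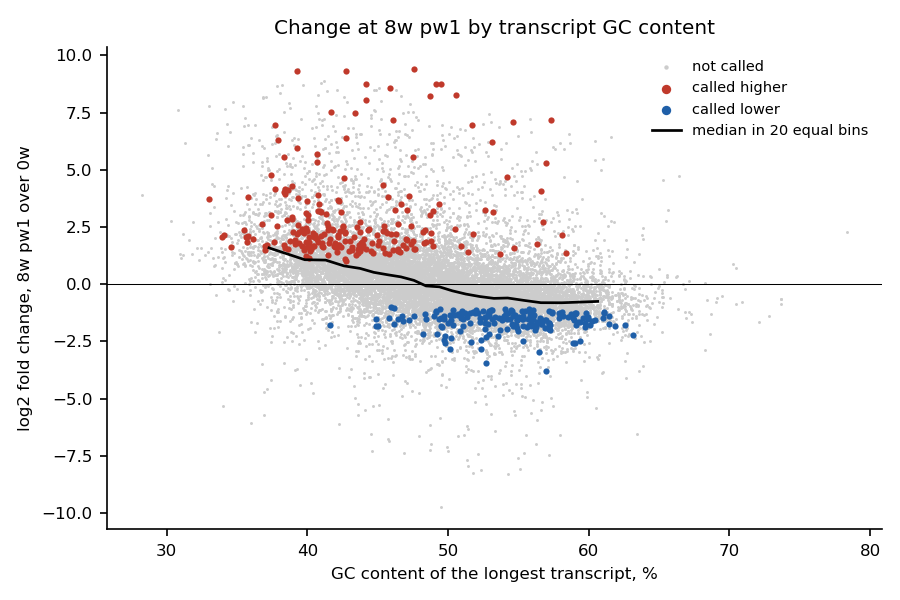
Log2 fold change of 8w pw1 against 0w for each tested gene against the GC content of its longest transcript in percent, with called genes in colour and a line through the medians of 20 equal bins. Genes called higher gather at low GC content (median 42.4%) and genes called lower at high GC content (median 54.5%), and the median of all genes falls from 1.02 in quartile 1 to -0.73 in quartile 4.

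Lgr5 GL cells, the progeny of bulge stem cells, were sampled over the same interval and allow a test of whether the change differs between the populations. In 1 model of all 36 libraries, with 16153 genes tested, 179 genes (1.11%) changed differently in the 2 populations between 0w and 8w pw1, 115 of which were among the 404. Both tests use the same Lrig1 GL libraries, so an overlap is built in and no conclusion is drawn from it. Matn2 was counted in Lgr5 GL cells at 262, 140 and 154 CPM at 0w and at 50.2, 46.0 and 101 CPM at 8w pw1. Its own log2 fold change there was -1.49 ± 0.43 and did not pass the test (adjusted p = 0.553). Between 8w pw1 and 0w in Lgr5 GL cells, edgeR called 0 genes in this model, with 735 at an unadjusted p under 0.05 and no other tool run. The difference of the log2 fold changes was 3.96 ± 0.62 (SE, adjusted p = 0.00377). Gorab in Lgr5 GL cells was counted at 4.81, 12.4 and 6.93 CPM at 0w and at 12.2, 10.3 and 4.13 CPM at 8w pw1, with overlapping groups, and the difference was 7.51 ± 1.29 (adjusted p = 0.00622). Arid4b and Dus1l differed by 4.47 and -4.34 with the same adjusted p. The changes of mt-Co1 and Dsp did not differ beyond the threshold (2.68 ± 0.70, adjusted p = 0.0513, and 2.12 ± 0.56, adjusted p = 0.0539). With the GC trend removed 12 genes differed, Matn2, Grip1, Gorab, Dus1l and Dad1 among them. The number of genes that differed was between 13 and 351 when 1 library was left out, 13 without 1 of the Lgr5 libraries of 8w pw1 and 351 without 0w 2 of Lrig1 GL cells.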

How the data were processed

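Raw counts per gene were deposited by the authors for 18 Lrig1 GL and 18 Lgr5 GL libraries in a table each. Per the labels and the study's methods, the authors trimmed reads with Trim Galore 0.5.0, aligned them to GRCm38 (mm10) with HISAT2 and counted exons per gene symbol with featureCounts. The strand setting is not given in the sources used here, so a gene and an antisense partner cannot be told apart. Totals ran from 765252 to 3365666 counts for the Lrig1 libraries.

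In R 4.3.3, genes kept by filterByExpr were scaled by TMM and tested with the quasi-likelihood test of edgeR 4.0.16 at the 8w coefficient over all 18 Lrig1 libraries (common biological coefficient of variation 0.698), which share 1 estimate of the spread. The default prior count of 0.125 was used for log2 fold changes, and p-values were adjusted by the Benjamini-Hochberg method over all genes tested. The study's test runs over the whole time course, and its surrogate variables are an alternative here. The study gives mice as the unit of replication for these data, and the labels tie no library to an animal, so p-values measure the spread between these libraries. The difference from Lgr5 GL cells was tested as an interaction in 1 edgeR model of 12 groups over genes in both tables. Alternatives used limma 3.58.1, DESeq2 1.42.0 and sva 3.50.0. Library measures were compared by an exact two-sided permutation test.

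Named genes were the 15 higher and the 15 lower called genes with the smallest adjusted p, with a mean of at least 10 counts, no overlap between the groups and a symbol other than Gm or Rik, the called members of 58 gene lists, 12 genes the study names, and the 5 genes first in the interaction test that were also called. The members and lists were chosen with earlier results of these data known. Gene positions, lengths and GC content come from GENCODE M21 (GRCm38). Counts for 13420 genes, simulated with known changes in this comparison, were recovered as called in 2.08%, 16%, 35.4% and 60.4% of genes changed by 1, 2, 3 and 4 on the log2 scale, and 1 of 13226 unchanged genes was called. The simulated counts held no shift of GC content, length or mitochondrial share between the groups. The 1 call among unchanged genes therefore says nothing about calls that follow such a shift. Intervals and floors cover counting error only, since the reads carry no molecular identifiers.

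The replicate numbers in the column names were checked for pairing. Deviations from the group means correlated at r = 0.0158 for number 2 and -0.0229 for number 3 across genes, so the numbers were not taken to pair libraries.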

Additional observations from a re-analysis of the deposited data

Results flagged for a closer look

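Lrig1 GL and Lgr5 GL cells changed differently between 0w and 8w pw1 in 179 genes, by a test of the difference itself in 1 edgeR model of both populations. Of 114 genes selected by the rule for named genes that entered this model, 36 were among the 179, 18 with a difference above 0 and 18 below 0, and the gene model Gm28437 was added because it ranked among the first 5 genes of that test. Of the 114, 102 were selected because they were called with the same Lrig1 GL libraries, so no conclusion is drawn from the number 36. Over all genes tested in this model, 1.11% differed. The values are differences of log2 fold changes, Lrig1 GL less Lgr5 GL cells, and each passed an adjusted p of 0.05.

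The differences above 0 were led by Mmp3 (9.56), Gorab (7.51), Grip1 (6.38), Arid4b (4.47), Gm28437 (4.44), Matn2 (3.96), Zfp397 (3.75), Hnrnpdl (3.03), Itgav (2.83) and Mir99ahg (2.45). Smaller positive differences were those of Usp15 (2.44), Bmp2k (2.32), Lamp2 (2.27), mt-Rnr1 (2.17), Rbm26 (2.10), Rab18 (2.10), Spry2 (1.93), Rbm39 (1.76) and Kif5b (1.51). The values of Mmp3 and Gorab rest on 0 and 1 counts at 0w in Lrig1 GL cells and depend on the prior count.

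The differences below 0 were led by Dus1l (-4.34), Timm8b (-2.48), Cox7a2l (-2.37), AC159187.1 (-2.19), Psmb6 (-2.13), Fkbp2 (-2.11), Barx2 (-2.06), Cyc1 (-2.04) and Psmb4 (-1.98). Smaller in size were those of Lgals7 (-1.98), Tecr (-1.97), Psmd4 (-1.95), S100a11 (-1.82), Dad1 (-1.80), Rab1b (-1.77), Hnrnpl (-1.77), Rpl11 (-1.63) and Tkt (-1.36). With the GC trend removed, Matn2, Grip1, Gorab, Dus1l and Dad1 were the genes of that selection that still differed, and the part of GC content in the other values was not tested further. Groups of 3 libraries were too small for a test of single outlying libraries.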

How the results depend on the processing

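The number of called genes, 404 with 217 higher and 187 lower, was within 1.5 times with DESeq2 size factors, a stricter filter, a robust fit, a prior count of 2, no minimum fold change and mitochondrial genes removed. It was 1408 (835 higher, 573 lower) with edgeR's likelihood ratio test, 1592 (1027, 565) with DESeq2, 756 (192, 564) without scaling factors, 182 (103, 79) with limma-voom and quality weights, 226 (146, 80) without a filter, 152 (36, 116) with the GC trend removed and 156 (34, 122) with the GC and length trends removed. It was 9 (9, 0) with the 6 libraries alone, where 11690 genes were tested and 2278 had an unadjusted p under 0.05, 7 (7, 0) with 5 estimated surrogate variables, 0 (0, 0) with 2 surrogate variables, where 1100 had an unadjusted p under 0.05, and 2 (2, 0) with glmTreat against a log2 fold change of 1. The likelihood ratio test with the GC trend removed, chosen after seeing the data, called 737 (190, 547). Without 1 library at a time the count ran from 7 to 604, with 7 to 312 higher and 0 to 292 lower. Where a fit left 2 libraries in a group, its spread was taken from the other groups. The cause of these differences was not tested, except that the 6 libraries alone and the fits without a library use fewer samples.

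With the replicate number as a block, 28 genes were called (25 higher, 3 lower) and 19 of the 102 called genes selected by the rule for named genes, and with the replicate block and the GC trend removed 0 (0, 0), with 1887 at an unadjusted p under 0.05. The samples share only a number, as the correlations of their deviations were near 0, so a call lost under the block is not described as a weaker effect.

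The difference in mitochondrial share was 8.17 percentage points, and 8.60 without the 10 most counted nuclear genes of each library. The number of genes whose change differed between the populations was 179, with 693 by the likelihood ratio test, 12 with the GC trend removed, 127 without a filter, 175 with DESeq2 size factors and 13 to 351 without 1 library at a time.

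Of all 404 called genes, 384 kept their sign with the GC trend removed. Among the genes selected by the rule for named genes, the log2 fold changes that turned sign were, with the GC trend removed, those of mt-Rnr1 (-0.11), mt-Nd4 (-0.14), mt-Nd2 (-0.14), Lamp2 (-0.25), mt-Nd5 (-0.28), Srsf10 (-0.094), Rab18 (-0.13), Krt14 (0.024), Mki67 (-0.15), Postn (-1.75) and Gata6 (0.079). With the GC and length trends removed, they were those of Lamp2 (-0.51), mt-Nd5 (-0.11), Srsf10 (-0.27), Rab18 (-0.30), Krt14 (0.21), Mki67 (-0.40) and Postn (-1.94). With the replicate block and the GC trend removed, they were those of mt-Nd2 (-0.16), Lamp2 (-0.12), mt-Nd5 (-0.22), Rab18 (-0.069), Krt14 (0.036), Mki67 (-0.028) and Postn (-1.77). With the likelihood ratio test and the GC trend removed, they were those of mt-Rnr1 (-0.11), mt-Nd4 (-0.14), mt-Nd2 (-0.14), Lamp2 (-0.25), mt-Nd5 (-0.28), Srsf10 (-0.094), Rab18 (-0.13), Krt14 (0.024), Mki67 (-0.15), Postn (-1.75) and Gata6 (0.079). With the estimated number of surrogate variables, they were those of Krt14 (0.093), Postn (-0.12), Gata6 (0.68) and Fabp5 (0.29). With 2 surrogate variables, they were those of Cdh1 (-0.030), Krt6a (0.11), Krt14 (0.22), Postn (-0.56), Gata6 (0.61) and Fabp5 (0.040). Without 0w 3, they were those of Lgr5 (0.67) and Fabp5 (0.64). Without 8w a, they were those of Postn (-0.030) and Lgr5 (0.034). Without 8w b, it was that of Fabp5 (0.24). Over the fits without 1 library, the values ran from -0.030 to 0.58 for Postn, from -0.62 to 0.67 for Lgr5 and from -0.79 to 0.64 for Fabp5. Of these genes, mt-Rnr1, mt-Nd4, mt-Nd2, Lamp2, mt-Nd5, Srsf10 and Rab18 were called at 8w pw1 with TMM scaling and the others were not. Postn was called lower with the GC trend removed (adjusted p = 0.038).

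Scaling moved the median log2 fold change of all genes from -0.01 to 0.04 with DESeq2 size factors, to -0.28 without scaling factors and to -0.33 with the GC trend removed. At this depth and spread most changes under a log2 fold change of 2 go uncalled, and an absent call is not evidence of no change. Genes listed with no count at 0w could have been present below 3 counts per library. Wound, age, time since labelling and the measures of the whole library that moved with them cannot be told apart with these libraries.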
